A study of Rattus norvegicus with 52 samples.

Results

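Gene expression 24 h after a dorsal root lesion (the group titled DR24h) was described across genes in rat dorsal root ganglia. All 3 channels titled DR24h, of 52 in the series, were set against the 3 channels of the control group of the same series, CON(DR). RNA came from the ganglia of the lumbar levels L4, L5 and L6, was labelled with 1 of 2 dyes and was hybridised to oligonucleotide arrays, with separate series for SN and for DR. The labels do not spell out these abbreviations; going by knowledge of the study, DR stands for a lesion of the dorsal root, the central branch of the sensory neurons, and SN for a lesion of the sciatic nerve, their peripheral branch. What was done to the control animals, and the strain, sex and age, are not given in the labels.

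Each group was 1 pool of 3 animals. Its channels are repeated hybridisations of that pool, so the p-values below cover hybridisation error alone, and the lesion cannot be told apart from the pool. DR24h replicates 1 and 2 carried the dye Cy3 and replicate 3 carried Cy5; CON(DR) replicates 1 and 2 carried Cy5 and replicate 3 carried Cy3. The neighbouring times DR12h (5 channels) and DR48h (4 channels) and the pair SN24h and CON(SN) (3 channels each) served for comparison.

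The dorsal root ganglion holds the cell bodies of sensory neurons, each wrapped in satellite glia and sending 1 axon branch to the periphery and another through the dorsal root into the spinal cord. Cutting the peripheral branch is known to switch on a broad growth programme led by transcription factors such as Atf3, whereas injury of the central branch is known for a weaker response. The ganglion also holds Schwann cells, fibroblasts, resident macrophages and blood, all of which contribute RNA to a whole-tissue sample. In such bulk samples fewer cells of a type and less RNA per cell cannot be told apart.

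The 6 channels had median intensities from 121 to 123 and upper quartiles from 381 to 393.5. Of the neuron markers, Prph, Avil, Uchl1 and Nefh lay at percentiles of 99.33 and above among all probes and Isl1 at 63.57. Calca, the calcitonin gene-related peptide gene of many of these neurons, was dim on its probe (means of 82.7 in DR24h and 87.3 in CON(DR)). Of the 5 measured markers of myelinating Schwann cells, Pmp22 and Prx lay at percentiles of 99.94 and 98.68. Mbp lay at 81.37, Egr2 at 75.81 and Mag at 50.36. Of the 4 measured satellite glia markers, Glul and Fabp7 lay at 92.87 and 84.88, and Kcnj10 and Gja1 at 27.71 and 4.72. Of the 4 measured spinal cord markers Aqp4, Slc32a1 and Gad1 were dim, at means of 54.7 to 61 in DR24h, and the myelin gene Mog averaged 131 in DR24h and 125 in CON(DR), near the channel median. The skeletal muscle markers Ckm and Myh4 averaged 48 and 59.3 in DR24h. The 4 measured neutrophil markers (Np4, Defa5, S100a8 and S100a9) summed to 596 to 640 in the DR24h channels and to 1102 to 1278 in the CON(DR) channels. The 3 red cell markers summed to 7176 to 8684 in DR24h and to 8364 to 10978 in CON(DR).

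A linear model with group and dye was fitted with limma to the log2 intensities of all 52 channels, and a probe was called at a Benjamini-Hochberg adjusted p below 0.05 where it also differed by 1.5-fold or more. Of 8455 probes 88 were called, or 1.04% of those tested: 53 were higher in DR24h (0.627%) and 35 lower (0.414%). Against the same CON(DR) channels, 245 probes were called in DR12h and 295 in DR48h. These counts are not on a par with 88, since DR12h has 5 channels and DR48h 4, against 3 in DR24h. The median standard errors were 0.199, 0.207 and 0.223. The 53 rises stood for 47 named genes and the 35 falls for 29, and 11 called probes were unnamed. In all 88 the Cy3 and the Cy5 channels gave the same sign, against 45.72% of all probes. The calls were made on these same channels, so this agreement follows largely from the selection and is no separate support. The authors' deposited table, made from the same channels, had the same sign for 86 of the 88 but often a smaller size. Of 43 named called genes 36 had a smaller value there, and 15 lay under the 1.5-fold limit. Examples from that table are Elovl6 at 0.48, Ifitm3 at 0.27, Abcb9 at -0.35 and RT1-Db1 at -0.07, against 1.24, 0.82, -0.95 and -0.86 in the channel fit. Taking only differences between channels of the same array, with arrays inferred from the deposited coefficients, called 181 probes (2.14%), 95 higher and 86 lower. The fits shared 71 calls, 49 of the rises and 22 of the falls, and none was called in opposite directions. Values from that second fit, which has a dye term, are named below as within arrays. Without a dye term the fit within arrays called 65 probes, 38 of them shared with the 88. Within arrays, with the dye term, 333 probes were called in DR12h against CON(DR) and 115 in DR48h.

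The CON(DR) channels weighed on these counts. Without CON(DR) replicate 3, the only Cy3 channel of that group, 170 probes were called, 50 higher and 120 lower. Without CON(DR) replicate 1 there were 57 calls, and without DR24h replicate 3 there were 51. With the 6 channels alone in the fit 3 probes were called, all higher. Probes with neighbouring numbers also had alike differences (Spearman's rho = 0.20 over 8454 neighbouring pairs, across probes, which are not independent), and 5 of the 35 falls carried numbers between 8101 and 8200. With each channel centred on blocks of 100 probe numbers, 75 probes were called higher and 49 lower, including 52 of the rises and 28 of the falls.

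The largest rise was that of Atf3, a transcription factor switched on by cell stress and axon injury. Atf3 read 1031, 862 and 1269 in the DR24h channels, against 145, 150 and 146 in the CON(DR) channels. The channels of the groups lay far apart, and the CON(DR) channels were nearly alike. The log2 difference was 2.83 ± 0.22 (SE), a 7.11-fold change with an adjusted p of 1.12e-11, and 2.63 within arrays. Reg3b, a secreted lectin made by injured sensory neurons, read 520, 476 and 427 in DR24h, against 52, 91 and 151 in CON(DR). The CON(DR) channels of Reg3b were spread widely but below all DR24h channels, and the log2 difference was 2.32 ± 0.29 (4.99-fold, adjusted p 1.62e-06).

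**Figure D1:**
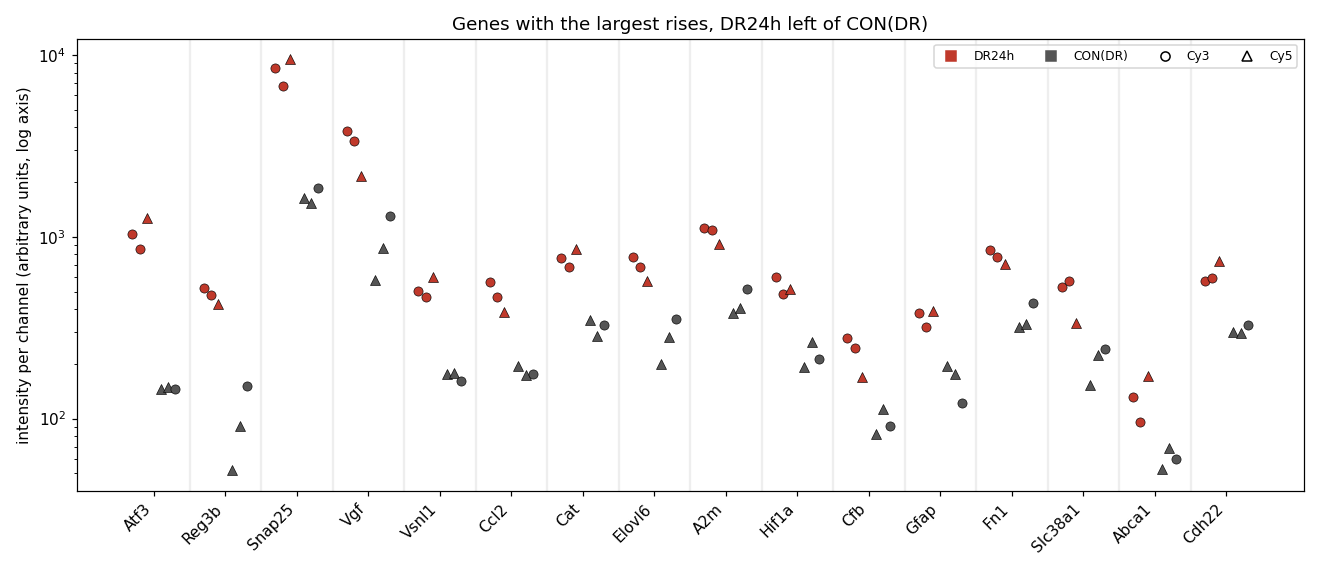
Intensity (arbitrary units, log axis) of the 16 named genes with the largest rises in each DR24h channel (red, left) and each CON(DR) channel (grey, right), with circles for Cy3 and triangles for Cy5. In all 16 genes the DR24h channels lie above every CON(DR) channel, from Atf3 (862 and more against 150 and less) to Cdh22 (575 and more against 326 and less).

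Genes of neuronal secretion came next. Snap25, part of the SNARE complex that fuses vesicles with the membrane, read 8524, 6724 and 9463 in DR24h and 1629, 1527 and 1861 in CON(DR). It was the brightest of the large rises, and its log2 difference of 2.27 ± 0.20 was a 4.82-fold change (adjusted p 1.03e-10). Vgf, a neuropeptide precursor that neurons release from dense-core vesicles, read 3813, 3369 and 2153 in DR24h and 582, 865 and 1301 in CON(DR). The Cy5 channel of DR24h was the lowest of its group and the Cy3 channel of CON(DR) the highest, without overlap, and the log2 difference was 1.67 ± 0.21 (3.18-fold, adjusted p 1.62e-06). Vsnl1, a neuronal calcium sensor, had 506, 468 and 598 in DR24h, against 176, 178 and 161 in CON(DR), a log2 difference of 1.59 ± 0.22 (3.02-fold, adjusted p 6.27e-06). In the authors' deposited table Vsnl1 was at 0.79.

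The promoter of Vgf is shown because it holds the cyclic AMP response element, the binding motif of CREB and ATF family factors. The motif searched was TGACGTCA, which reads the same on both strands, in windows of 300 bases around RefSeq gene starts in the build GRCr8. Of the 47 named genes with called rises 32 were matched, with 34 windows, and 2 windows held the motif (5.88%), against 1.83% of all 33469 windows. None of the 27 windows of the genes with called falls held it. The other window with a match was that of Golph3, a Golgi protein, which read 304, 283 and 314 in DR24h and 134, 168 and 172 in CON(DR). A match is a description of the letters and not of binding. The AP-1 motif TGACTCA, or TGAGTCA on the other strand, was held by 2 of the 34 windows (5.88%), those of Banf1 and Aspg, against 4.63% of all windows. In the lines below, 5′ to 3′ on the gene's strand, the capitals mark the cyclic AMP response element, which starts 90 bases before the gene start in Vgf (chr12:25276971-25277270, minus strand) and 185 bases before it in Golph3 (chr2:63074827-63075126, plus strand).
Vgf: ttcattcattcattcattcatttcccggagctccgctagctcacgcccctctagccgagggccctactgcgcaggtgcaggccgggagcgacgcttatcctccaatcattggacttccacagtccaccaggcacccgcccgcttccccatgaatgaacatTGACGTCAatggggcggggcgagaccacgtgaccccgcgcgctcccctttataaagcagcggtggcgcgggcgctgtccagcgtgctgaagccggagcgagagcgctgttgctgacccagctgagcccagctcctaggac
Golph3: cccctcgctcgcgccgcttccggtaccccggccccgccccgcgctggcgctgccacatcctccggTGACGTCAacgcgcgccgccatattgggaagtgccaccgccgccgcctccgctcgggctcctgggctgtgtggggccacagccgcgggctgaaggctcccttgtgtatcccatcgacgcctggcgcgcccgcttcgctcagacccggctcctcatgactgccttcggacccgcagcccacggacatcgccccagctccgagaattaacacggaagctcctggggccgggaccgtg

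Ccl2, a chemokine that attracts monocytes, read 565, 467 and 384 in DR24h and 195, 173 and 175 in CON(DR), a log2 difference of 1.29 ± 0.21 (2.45-fold, adjusted p 0.000165). Cat, the hydrogen peroxide degrading enzyme catalase, read 765, 686 and 852 in DR24h and 347, 284 and 329 in CON(DR), a 2.44-fold change. In both genes each DR24h channel lay above each CON(DR) channel, and within arrays the log2 differences were 1.45 and 1.05. The protease inhibitor A2m had 1119, 1092 and 912 in DR24h and 380, 405 and 515 in CON(DR) (2.35-fold). Complement factor B, Cfb, had 278, 244 and 170 in DR24h and 82, 113 and 91 in CON(DR) (2.29-fold). Hif1a, the oxygen-regulated transcription factor subunit, read 601, 485 and 518 in DR24h and 193, 265 and 212 in CON(DR) (2.29-fold), while a dimmer probe of Hif1a was not called, at 0.33 ± 0.21.

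The glial filament gene Gfap, which satellite glia and Schwann cells raise after injury, read 379, 321 and 390 in DR24h and 194, 177 and 122 in CON(DR), a log2 difference of 1.18 ± 0.20. Fibronectin, Fn1, a matrix protein, read 842, 770 and 705 in DR24h and 318, 333 and 433 in CON(DR), a log2 difference of 1.10 ± 0.22. Neither gene's groups overlapped, and dim other probes of both were not called, at 0.14 ± 0.22 and 0.19 ± 0.18. Elovl6, which lengthens fatty acids, had 774, 685 and 571 in DR24h and 200, 281 and 351 in CON(DR) (2.36-fold). The neutral amino acid transporter Slc38a1 had 531, 571 and 337 in DR24h and 153, 224 and 240 in CON(DR), and its call was lost without CON(DR) replicate 1. The cell adhesion cadherin Cdh22 had 575, 594 and 739 in DR24h and 298, 297 and 326 in CON(DR). Abca1, a cholesterol exporter, read 132, 96 and 171 in DR24h and 53, 69 and 60 in CON(DR). Its call was lost in 4 of 6 fits that each left out 1 channel, and its other probes were at 0.20 ± 0.25 and -0.51 ± 0.38.

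All 16 of the largest rises were called within arrays and after centring on blocks of probe numbers, and 14 kept their calls without any single channel, Slc38a1 and Abca1 being the exceptions. These fits reuse the channels on which the 16 were picked as called rises, so this follows largely from the selection and is no separate support.

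The largest fall was that of Ptprv, a receptor-type protein tyrosine phosphatase, which read 177, 187 and 154 in DR24h, against 779, 894 and 325 in CON(DR). The DR24h channels were close together and CON(DR) replicate 3 was the lowest of its group. The log2 difference was -1.73 ± 0.26, a 3.33-fold change with an adjusted p of 5.61e-05, and -1.88 within arrays. The Cy3 channels alone gave -0.84 and the Cy5 channels alone -2.44. Np4, a neutrophil defensin, read 221, 194 and 164 in DR24h and 303, 457 and 476 in CON(DR), a log2 difference of -1.12 ± 0.24 (2.18-fold, adjusted p 0.00551). The summed neutrophil markers given above, which include Np4 itself, were at 596 to 640 in DR24h and 1102 to 1278 in CON(DR). The other markers in the sum, Defa5, S100a8 and S100a9, were not called, at -0.77 ± 0.23, -1.15 ± 0.35 and -0.65 ± 0.35. Within arrays they were called lower. The part of these markers in other falls was not tested. Mcpt8, a basophil and mast cell protease, was dim, at 81, 59 and 74 in DR24h and 174, 170 and 96 in CON(DR), a log2 difference of -0.98 ± 0.21.

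S100a4, a small calcium-binding protein of motile cells, read 2329, 1858 and 2682 in DR24h and 5806, 4651 and 3505 in CON(DR), a log2 difference of -0.95 ± 0.15 (1.93-fold, adjusted p 0.000141). A dimmer probe of S100a4 was also called, at -0.71 ± 0.14, but not within arrays (-0.49). The large subunit ribosomal protein gene Rpl27 read 4339, 3578 and 5172 in DR24h and 12043, 10682 and 5767 in CON(DR), a log2 difference of -0.99 ± 0.20. CON(DR) replicate 3 of Rpl27 lay near the DR24h channels. The lysosomal peptide transporter Abcb9 read 1014, 897 and 1021 in DR24h and 2659, 2224 and 1259 in CON(DR). Rpl27 and Abcb9 lost their calls without CON(DR) replicate 1. Lamtor2, part of the lysosomal scaffold that recruits mTORC1, had 2257, 2128 and 1577 in DR24h and 4177, 3135 and 3329 in CON(DR), a log2 difference of -0.91 ± 0.16.

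Mpdu1, needed for the use of dolichol-linked mannose in glycosylation, had 1671, 1564 and 1428 in DR24h and 2006, 4164 and 3104 in CON(DR). It was the only 1 of the 10 largest falls not called within arrays (-0.55, adjusted p 0.093), and its call was lost without CON(DR) replicate 2. Babam2, a subunit of a DNA repair deubiquitinase complex, had 1621, 1300 and 1417 in DR24h and 3385, 3062 and 1983 in CON(DR). Other probes of Babam2 were not called, at -0.20 ± 0.23 and -0.59 ± 0.20, and the latter was called within arrays (-0.68). Limk1, a kinase that inhibits the actin-severing protein cofilin, had 1548, 1338 and 1638 in DR24h and 1876, 3927 and 2550 in CON(DR). The calls of Limk1 and Mcpt8 were each lost in 3 of the 6 fits that left out 1 channel, and that of Np4 in 2.

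**Figure D2:**
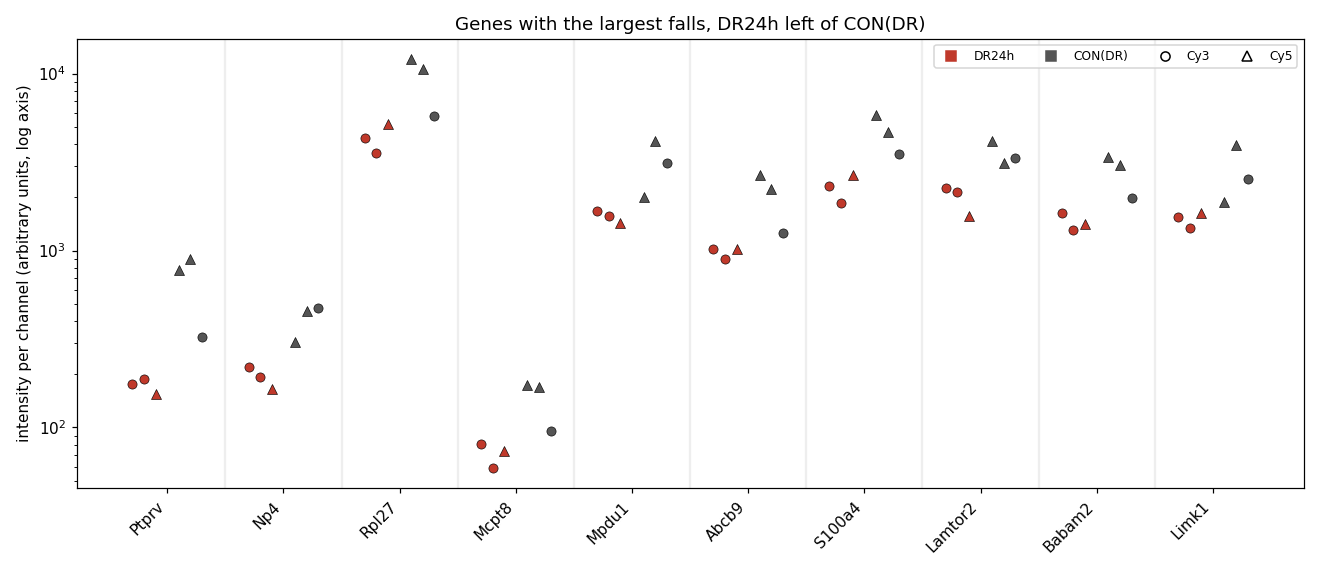
Intensity (arbitrary units, log axis) of the 10 named genes with the largest falls in each DR24h channel (red, left) and each CON(DR) channel (grey, right), with circles for Cy3 and triangles for Cy5. In all 10 genes the DR24h channels lie below every CON(DR) channel, and in Rpl27 the gap is small, 5172 at most in DR24h against 5767 at least in CON(DR).

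Of 8455 probes 10.92% had no overlap between the 3 DR24h and the 3 CON(DR) channels, as had 85 of the 88 called probes. The calls were made on these channels, so the lack of overlap in called probes follows largely from the selection.

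Of 12 genes named whatever their values, but picked with earlier results of these data known, 4 rose (Atf3, Snap25, Reg3b and Ccl2), against 0.627% of all probes called higher. Jun, an early stress transcription factor, read 245, 259 and 294 in DR24h and 162, 180 and 196 in CON(DR); the channels did not overlap, but the log2 difference of 0.57 ± 0.27 was not called (adjusted p 0.547). Galanin (Gal), a neuropeptide, read 565, 459 and 638 in DR24h and 491, 547 and 244 in CON(DR), and the channels overlapped (0.54 ± 0.67). Gap43, a growth cone protein, had 3543, 3010 and 2999 in DR24h and 5195, 6147 and 1035 in CON(DR), so CON(DR) replicate 3 lay far below the others (0.05 ± 0.95). A second probe of Gap43 was at -0.29 ± 0.22, and within arrays the first probe was at -0.57 (adjusted p 0.0223) and fell short of a call at the 1.5-fold limit in that fit.

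Stat3, which carries cytokine signals, was at 0.54 ± 0.29 and the transcription factor Sox11 at -0.25 ± 0.30. The neuropeptide genes Npy (0.10 ± 0.46) and Vip (-0.16 ± 0.27) and the cornified envelope gene Sprr1a (-0.05 ± 0.24) were also not called, and Vip and Sprr1a were dim at 27 to 53 in all 6 channels. In simulated channels with the same spread 70% of probes changed by 1 on the log2 scale and 99% of those changed by 2 were recovered, and smaller changes were not simulated. The simulated errors were independent between channels and the changed probes were drawn at random. Gap43, Gal and Npy had standard errors of 0.95, 0.67 and 0.46, against a median of 0.22 over all probes, so these rates do not carry over to them.

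Gene lists chosen with earlier results of these data known are given by their counts and medians; the median over all probes was -0.01 and 1.04% of probes were called. Of 34 injury-induced transcription factors 2 rose, Atf3 and Hif1a, and the median log2 difference was 0.12. Among 36 growth-associated effectors 2 rose, Reg3b and the hyaluronan receptor Cd44, which had 768, 691 and 553 in DR24h and 277, 404 and 438 in CON(DR) and lost its call in 4 of the 6 fits that left out 1 channel. Of 44 synaptic vesicle and release genes 2 rose, Snap25 and Vsnl1, with a median of 0.15. Of 29 neuropeptides and granins Vgf rose and neuromedin B (Nmb) fell. Nmb read 1365, 1203 and 1470 in DR24h, against 2683, 3138 and 1762 in CON(DR), a log2 difference of -0.82 ± 0.16 that was -0.22 in the authors' deposited table.

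None of 20 genes of sensory neuron identity was called (median 0.06, 4 at an unadjusted p below 0.05), the lowest being the neurofilament gene Nefm at -0.58 ± 0.21. Of 47 potassium channels 1 fell, the axonal channel Kcna1 at -0.75 ± 0.17, which was not called within arrays and lost its call in 3 of the 6 fits without 1 channel. None was called among 23 sodium and calcium channels, 31 glutamate, GABA and glycine receptors, 44 nociceptor receptors and transducers or 31 neurotrophic and cytokine receptors, where limma gave 4, 4, 0 and 5 genes at an unadjusted p below 0.05. The largest values there were 0.80 ± 0.22 for the calcium channel subunit Cacnb3, -1.45 ± 0.61 for the glutamate receptor Grm5, -0.49 ± 0.27 for the serotonin receptor Htr3b and 0.59 ± 0.27 for the cytokine co-receptor Il6st. Cacnb3 was called within arrays (0.90). Grm5 was dim in all channels except CON(DR) replicate 3, at 939, and was at -0.12 within arrays.

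The list of complement, acute phase and protease inhibitor genes had the most calls: 5 of 28 rose (17.86%) and none fell, with a median of 0.09. Besides A2m and Cfb these were the metalloprotease inhibitor Timp1, the complement protease C1s and the lipopolysaccharide binding protein Lbp. Timp1 read 2800, 2536 and 1813 in DR24h and 978, 1116 and 1257 in CON(DR) (1.99-fold, adjusted p 0.00129). C1s read 1178, 1030 and 1212 in DR24h and 580, 566 and 660 in CON(DR) (1.87-fold, adjusted p 0.000718). Lbp was dim, at 94, 84 and 88 in DR24h and 47, 54 and 46 in CON(DR). Within arrays 7 of the 28 rose. The 10 macrophage markers had no call (1 at an unadjusted p below 0.05) and a median of 0.11; within arrays 1 of them, the complement subunit C1qb, rose.

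Of 53 extracellular matrix genes 4 rose and none fell, with a median of 0.21. They were Fn1, Timp1, the collagen Col5a3 and the proteoglycan Bgn, which had 1460, 1406 and 979 in DR24h and 753, 592 and 808 in CON(DR) and was not called within arrays. Bgn lost its call in 3 of the 6 fits without 1 channel and Col5a3 in 1. Of 25 genes of satellite glia and immature Schwann cells 2 rose, Gfap and the lipid carrier Apod (1.72-fold, its call lost in 4 of the 6 fits without 1 channel), with a median of 0.21. None of 15 myelin genes (median 0.08), 19 endothelial and mural cell genes (0.06) or 12 spinal cord transcripts (0.04) was called, with 3, 2 and 0 at an unadjusted p below 0.05. Of 51 adhesion and axon guidance genes Cdh22 and the laminin receptor subunit Itga6 rose, of 44 genes of microtubules and motors Map1b, and of 41 genes of neurofilaments and actin cytoskeleton Gfap. Itga6 was at 0.24 in the Cy3 channels and 1.78 in the Cy5 channels, and its call was lost in 4 of the 6 fits without 1 channel. That of Map1b was lost in 1, and a dim other probe of Map1b was not called, at 0.08 ± 0.23.

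**Figure D3:**
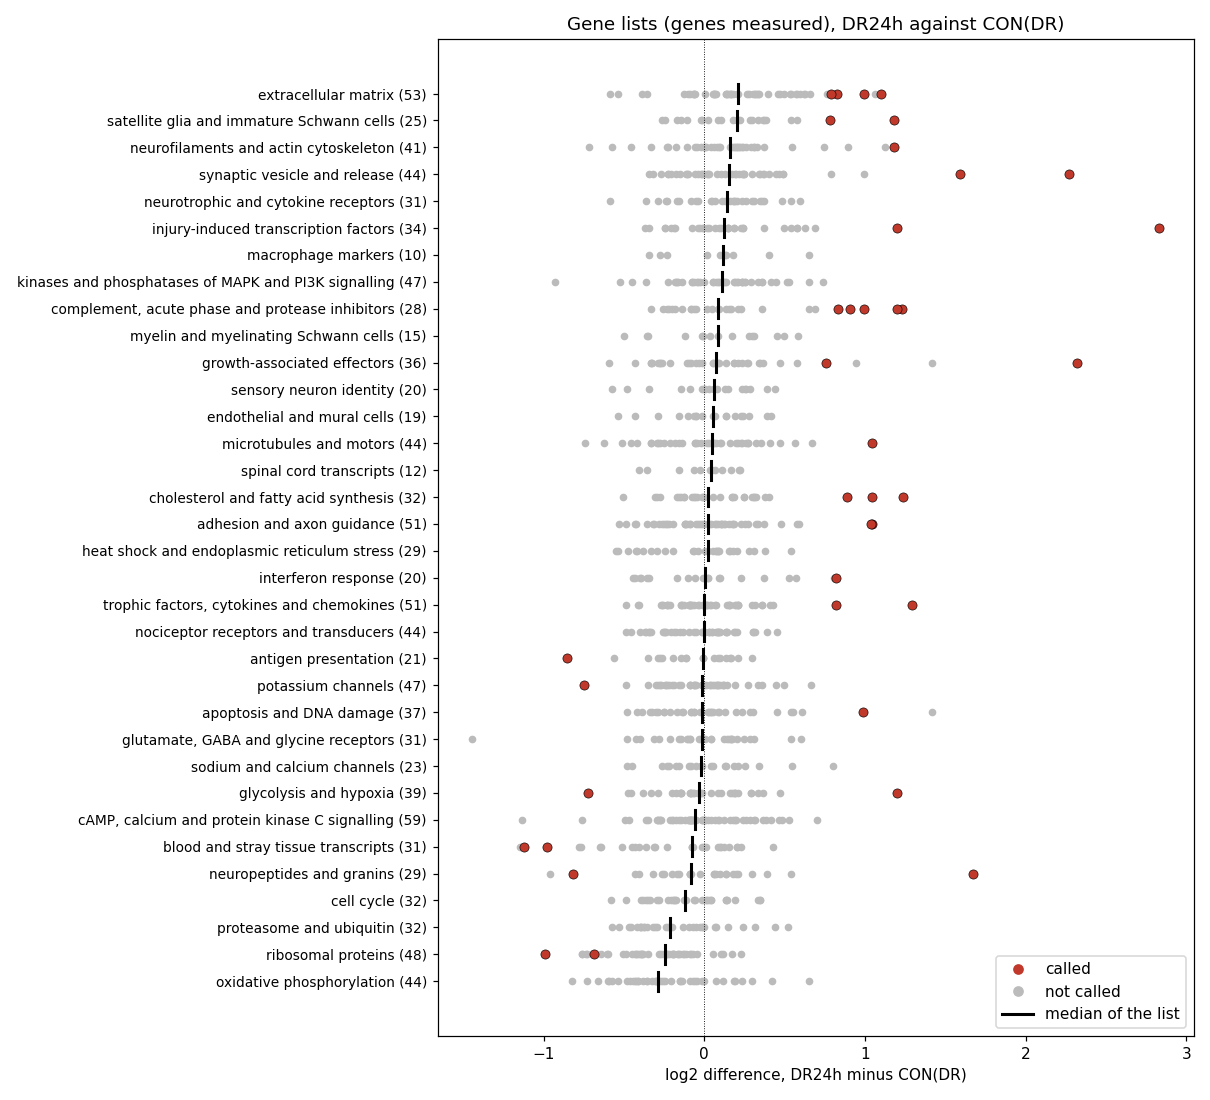
Log2 difference (DR24h minus CON(DR)) of each measured gene of 34 lists, with the number measured in brackets, called genes in red, others in grey and the list's median as a bar. Calls to the right are most frequent in the complement and acute phase list (5 of 28), and the medians of oxidative phosphorylation and ribosomal protein genes lie farthest to the left.

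Of 32 genes of cholesterol and fatty acid synthesis 3 rose, Elovl6, Abca1 and the fatty acid desaturase Scd2. Scd2 read 26332, 21837 and 17555 in DR24h, against 10859, 12918 and 11109 in CON(DR), a log2 difference of 0.89 ± 0.21 (1.85-fold). The calls of Scd2 and Abca1 were each lost in 4 of the 6 fits that left out 1 channel. Of 39 glycolysis and hypoxia genes Hif1a rose and Bnip3l, a mitochondrial autophagy receptor, fell by 0.73 ± 0.17, while the authors' deposited table has Bnip3l at 0.16. The call of Bnip3l was lost in 3 of the 6 fits without 1 channel.

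Of 48 ribosomal protein genes 2 fell, Rpl27 and Rpl22 (-0.68 ± 0.17), with a median of -0.25 that was -0.15 within arrays. The call of Rpl22 was lost in 5 of the 6 fits that left out 1 channel. None of the 44 oxidative phosphorylation genes of the list was called (13 at an unadjusted p below 0.05, 1 fall called within arrays and 2 after centring on probe blocks), and their median was -0.29, or -0.13 within arrays; the lowest was the cytochrome oxidase subunit gene Cox7a2 at -0.82 ± 0.26. Ndufa12, a complex I subunit gene that the list does not hold and that is named after its values were seen, fell by 0.84 ± 0.17 (adjusted p 0.0038) and was not called within arrays or after centring on probe blocks. The 32 proteasome and ubiquitin genes had no call (11 at an unadjusted p below 0.05, 2 falls called within arrays) and a median of -0.21, or -0.04 within arrays. Their member Psma1 was at -0.58 ± 0.24.

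Of 51 trophic factors, cytokines and chemokines Ccl2 and the growth factor Igf2 rose, the call of Igf2 being lost in 4 of the 6 fits without 1 channel. Of 20 interferon response genes the membrane protein gene Ifitm3 rose, at 1031, 968 and 1413 in DR24h and 705, 816 and 505 in CON(DR). Of 21 antigen presentation genes 1 fell, RT1-Db1, a class II gene, at -0.86 ± 0.20, with other probes at -0.27 ± 0.25 and -0.28 ± 0.18. The call of RT1-Db1 was lost in 4 of the 6 fits that left out 1 channel, and its value was -0.07 in the authors' deposited table. Of 31 blood and stray tissue transcripts 2 fell, Np4 and Mcpt8, and within arrays 6 fell. Of 37 apoptosis and DNA damage genes the stress gene Gadd45g rose, at 854, 976 and 810 in DR24h and 411, 512 and 409 in CON(DR), a log2 difference of 0.99 ± 0.18.

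None was called among 32 cell cycle genes, 29 heat shock and endoplasmic reticulum stress genes, 47 kinases and phosphatases of MAPK and PI3K signalling or 59 genes of cAMP, calcium and protein kinase C signalling, with 3, 6, 7 and 7 at an unadjusted p below 0.05. The largest values of these lists were -0.58 ± 0.20 for Cdc25a, -0.55 ± 0.24 for Herpud1, -0.93 ± 0.37 for Pik3ca and -1.14 ± 0.54 for Camk2g. Pik3ca was at 39, 38 and 45 in DR24h and at 38, 42 and 247 in CON(DR), with 1 channel apart.

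Many of the changes named above were not particular to 24 h. Against CON(DR), all of the 16 largest rises except Cfb were also called higher in both DR12h and DR48h, and Cfb was called in neither. All 10 of the largest falls were called lower in both. All these comparisons share the CON(DR) channels. Against the neighbouring times few probes differed. DR24h against DR12h gave 7 called probes (0.0828%), 6 higher and 1 lower. Of the 7, 5 were called within arrays and 1 within arrays without a dye term. Reg3b read 520, 476 and 427 in DR24h and 200, 132, 228, 179 and 255 in DR12h, a log2 difference of 1.27 ± 0.26 (adjusted p 0.0271). The growth factor Igf2 read 331, 268 and 320 in DR24h and 176, 129, 202, 175 and 179 in DR12h (0.82 ± 0.17). Igfbp5, a binding protein of insulin-like growth factors, read 1983, 1723 and 2845 in DR24h and 1055 to 1247 in DR12h (0.93 ± 0.20), and was not called within arrays (0.56, adjusted p 0.456). None of these 3 genes had overlapping channels between the times, as was the case for 4.31% of all probes.

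Dbp, a transcription factor whose level follows the circadian clock, had 1070, 1086 and 1056 in DR24h and 458, 447, 554, 519 and 622 in DR12h, a log2 difference of 1.04 ± 0.19 (adjusted p 0.00812). Against CON(DR), where its channels spread from 668 to 1757, Dbp in DR24h was at -0.11 ± 0.22. Etv1, an ETS transcription factor of proprioceptive neurons in mouse, read 403, 328 and 262 in DR24h and 667, 622, 698, 691 and 678 in DR12h, a log2 difference of -1.05 ± 0.18 (adjusted p 0.00265) that was -0.94 within arrays and not called there. The count of 7 was 2 without DR24h replicate 3, and 3 without DR24h replicate 1 or without DR12h replicate 1.

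DR24h against DR48h gave 2 called probes (0.0237%), both higher, 1 of them unnamed, with 366 probes at an unadjusted p below 0.05. The unnamed probe, number 4525, read 267, 191 and 234 in DR24h and 89, 107, 72 and 121 in DR48h. Its log2 difference was 1.26 ± 0.22 (adjusted p 0.00749), and it was also called within arrays (1.17). Probe 4525 was called higher against CON(DR) and against DR12h as well, in both fits. The named gene was the beta globin gene Hbb of red cells, at 8394, 6944 and 7685 in DR24h and 3435, 4535, 3567 and 4831 in DR48h, a log2 difference of 0.92 ± 0.18 (adjusted p 0.0349) that was not called within arrays (0.74, adjusted p 0.319). The count in limma was 0 without DR24h replicate 1 or 3 (360 and 404 probes at an unadjusted p below 0.05), 1 without DR24h replicate 2 or DR48h replicate 3, and 5 without DR48h replicate 4. Over the 88 probes called against CON(DR), the differences of DR24h from DR48h ran from -0.59 to 1.26 on the log2 scale, with 48 higher and 40 lower in DR24h and a median 95% half-width of 0.36. These probes were chosen with the same DR24h channels and mix rises with falls. The counts therefore cannot show whether the changes held or faded.

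Means of some leading genes over 12, 24 and 48 h were as follows; of the differences of DR24h from its neighbours among them, only that of Reg3b from DR12h was called. Atf3 averaged 701 ± 83.1, 1054 ± 205 and 549 ± 170 (SD, n = 5, 3 and 4 channels), and its difference from DR48h of 0.99 ± 0.21 was not called (adjusted p 0.0586). Reg3b averaged 199 ± 47.1, 474 ± 46.5 and 702 ± 132, and Ccl2 746 ± 81.5, 472 ± 90.6 and 645 ± 292. Ccl2 was lower in DR24h than in DR12h by a log2 difference of -0.69 ± 0.19 that was not called (adjusted p 0.362) and was -0.25 within arrays. Snap25 averaged 5459 ± 1112, 8237 ± 1392 and 5178 ± 877, and Ptprv 234 ± 75.7, 173 ± 16.9 and 195 ± 31.2.

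**Figure D4:**
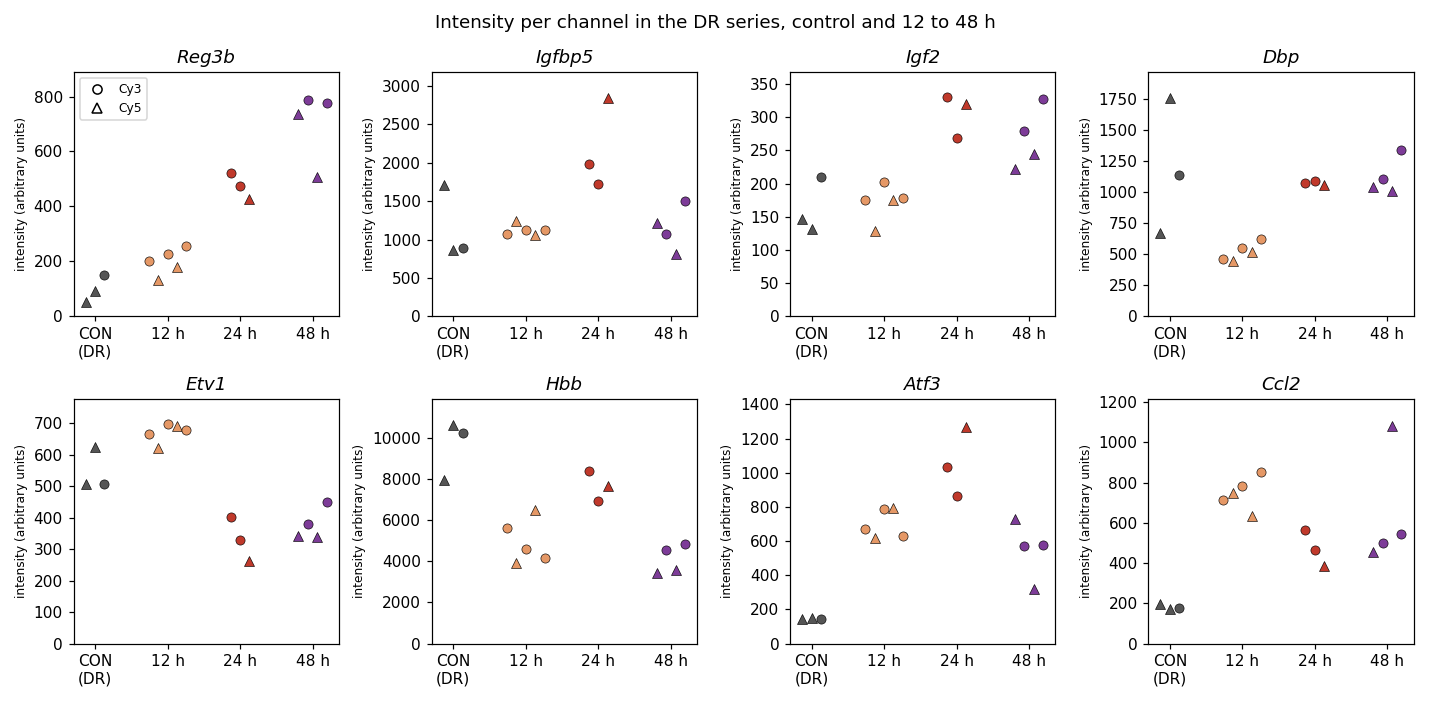
Intensity per channel (arbitrary units, linear axis from 0) of 8 genes in CON(DR) and at 12, 24 and 48 h of the DR series, with circles for Cy3 and triangles for Cy5. Reg3b is higher at 24 h (427 to 520) than at 12 h (132 to 255), Etv1 is lower (262 to 403 against 622 to 698), and Ccl2, whose difference was not called, has a mean of 472 at 24 h and 746 at 12 h.

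The DR24h change was then set against the SN24h change, each taken from the control of its own series, because the DR and SN arrays formed separate loops. The interaction was called for 29 probes (0.343%), 20 with a higher and 9 with a lower change in DR24h. Within arrays 85 were called, 21 of them shared, and within arrays without a dye term 32 were called, 14 of them shared. Without DR24h replicate 3 there were 15 calls, without CON(SN) replicate 3 also 15, without CON(DR) replicate 3 there were 54, and with only the 4 groups in the fit limma called 0 (526 at an unadjusted p below 0.05).

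Snap25 rose by 2.27 ± 0.20 in DR24h and by 0.89 ± 0.20 in SN24h, a difference of changes of 1.38 ± 0.28 (adjusted p 0.0092). Its channels were 3121, 3104 and 3423 in SN24h and 1617, 1774 and 1901 in CON(SN). Scd2 rose by 0.89 ± 0.21 in DR24h and was at -0.83 ± 0.21 in SN24h, which was not called (adjusted p 0.0591); the difference of changes was 1.72 ± 0.30 (adjusted p 0.00168), with 9045, 8332 and 8601 in SN24h and 15615, 16069 and 14656 in CON(SN). The differences of changes were also called for Slc38a1 (1.62 ± 0.32), Cdh22 (1.46 ± 0.24), Igfbp5 (1.54 ± 0.32) and Hif1a (1.49 ± 0.34). These 4 genes rose in DR24h, while their SN24h values of -0.53 ± 0.23, -0.42 ± 0.17, -0.55 ± 0.22 and -0.29 ± 0.24 were not called. Within arrays the differences of Igfbp5 and Hif1a were not called, nor was the DR24h change of Igfbp5. A dim other probe of Igfbp5 was not called against CON(DR), at 0.01 ± 0.33. Ptn, the heparin-binding growth factor pleiotrophin, was at 0.28 ± 0.23 in DR24h and at -1.20 ± 0.23 in SN24h (difference 1.48 ± 0.33).

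In the other direction stood genes that rose in SN24h. Csrp3, a muscle LIM protein, read 68, 74 and 77 in DR24h and 70, 83 and 90 in CON(DR), against 575, 395 and 399 in SN24h and 91, 70 and 131 in CON(SN). The changes were -0.10 ± 0.20 in DR24h and 2.21 ± 0.20 in SN24h, a difference of -2.30 ± 0.29 (adjusted p 7.61e-06). Ankrd1, a cardiac ankyrin repeat protein, was at -0.02 ± 0.21 in DR24h and 1.81 ± 0.21 in SN24h, and the arginine-degrading enzyme Arg1 at 0.18 ± 0.21 in DR24h and 1.61 ± 0.21 in SN24h. Both differences were called, at -1.83 ± 0.30 and -1.43 ± 0.30.

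Atf3 rose in both lesions, by 2.83 ± 0.22 in DR24h and by 4.19 ± 0.22 in SN24h, a difference of -1.36 ± 0.32 (adjusted p 0.0382). Reg3b differed by -0.97 ± 0.42 and Vgf by 0.41 ± 0.30, neither called. Vsnl1, at 1.59 ± 0.22 in DR24h and 0.37 ± 0.22 in SN24h, differed by 1.23 ± 0.31 and missed the threshold (adjusted p 0.0582). Ptprv and S100a4 fell in DR24h and were at 0.16 ± 0.26 and 0.16 ± 0.15 in SN24h, and their differences of -1.89 ± 0.38 and -1.10 ± 0.22 were called in both fits. The dimmer probe of S100a4 differed by -0.78 ± 0.20, or -0.69 within arrays, and was called in neither fit.

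**Figure D5:**
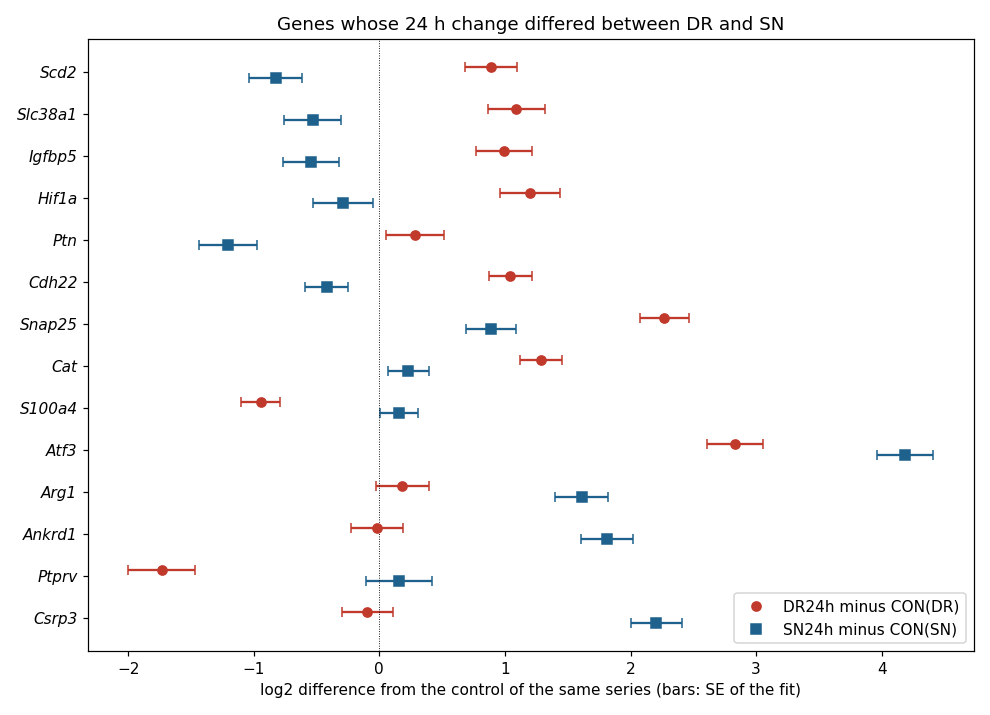
Log2 difference from the control of the same series at 24 h for 14 genes whose change differed between the lesions, with DR24h as red circles and SN24h as blue squares; bars are the SE of the fit. Csrp3, Ankrd1 and Arg1 lie near 0 in DR24h and between 1.61 and 2.21 in SN24h, while Scd2, Slc38a1, Igfbp5, Hif1a and Cdh22 rose in DR24h and have SN24h values below 0 that were not called.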

How the data were processed

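The authors deposited 1 intensity value per probe and channel, in normalised form (how is not given in the sources used here), and a table of log2 coefficients with standard errors, for which the submitters' processing notes name limma. Depth has no count on arrays; the number of channels limits the precision. The log2 of the intensities was taken with no pseudocount and no filter on dim probes, and limma 3.58.1 in R 4.3.3 fitted group and dye to all 52 channels, with Benjamini-Hochberg adjustment over 8455 probes. The annotation gave 1 symbol for 6907 probes, several for 168 and none for 1380; the brightest probe stood for a gene. Channels were joined into 26 arrays by inference, and Cy5 minus Cy3 was fitted with a dye term. The deposited relative standard errors matched this layout without a dye term.

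The members and the lists were chosen with earlier results of these data known. Named were the 16 largest rises and 10 largest falls with the sign of the authors' coefficient, the 6 highest and 6 lowest of other comparisons, called or largest members of 34 lists, and 12 fixed genes. Same-numbered channels of DR24h and CON(DR) had residual correlations of 0.55, -0.23 and 0.17, so the numbers do not pair them as a set. Replicate 1 of each group shared an inferred array, the only array to hold both groups. The channel fit took those 2 channels as independent. The within-array difference of the groups also rests on arrays with other times. The fit was tested on simulated channels. Alternatives were normalisation, dye term, filters, fold minimum, control group, channels left out and, added after the data were seen, single dyes and blocks of probe numbers.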

Additional observations from a re-analysis of the deposited data

Results flagged for a closer look

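For 14 of the named genes, listed here, the change at 24 h differed between the DR and SN lesions by the interaction test in limma (DR24h minus CON(DR), minus SN24h minus CON(SN), log2). The difference was 1.72 for Scd2, 1.62 for Slc38a1, 1.54 for Igfbp5, 1.49 for Hif1a, 1.48 for Ptn, 1.46 for Cdh22, 1.38 for Snap25 and 1.06 for Cat. It was -2.30 for Csrp3, -1.89 for Ptprv, -1.83 for Ankrd1, -1.43 for Arg1, -1.36 for Atf3 and -1.10 for S100a4. Within arrays Igfbp5, Hif1a and Cat were not called, and the dimmer probe of S100a4 (-0.78) was called in neither fit. The interaction was also called for Golph3 (1.29), Igfbp3 (1.09) and Gpx4 (-0.85), which are named elsewhere in the text. Of these Igfbp3 was not called within arrays. In Ptprv and S100a4 the CON(DR) channels (325 to 894 and 3505 to 5806) spread more than the DR24h channels (154 to 187 and 1858 to 2682).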

How the results depend on the processing

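Channels are repeats of 1 pool, so no setting speaks to other animals. Against CON(DR), 88 calls became 40 with only the DR series in the fit, 3 with only the groups compared, 29 at a 2-fold minimum, 181 within arrays, 210 with CON(SN) as control (77 higher and 133 lower, 47 of them shared with the 88) and 167 with the mean of both controls (75 higher and 92 lower, 70 shared), so that 36.67% and 44.91% were higher, against 60.23%; leaving out 1 channel gave 51 to 170. Within arrays without a dye term 65 were called, 38 of them shared with the 88. Quantile normalisation called 75, 69.33% of them higher. Against DR12h, 7 became 3 with the DR series, 4 with no dye term, 35 within arrays and 3 within arrays without a dye term; leaving out 1 channel gave 2 to 6. Against DR48h, 2 became 1 with the DR series, 0 with only the groups compared (212 probes had an unadjusted p below 0.05 in limma), 1 after quantile normalisation, 4 without the dimmest 25% of probes, 1 at 2-fold, 1 within arrays, 1 within arrays without a dye term and 8 centred on probe blocks; leaving out 1 channel gave 0 to 5. Against SN24h, 29 became 0 with only the groups compared (526 at an unadjusted p below 0.05), 45 with no dye term, 51 without the dimmest 25% of probes, 85 within arrays and 79 centred on probe blocks; leaving out 1 channel gave 15 to 54. The replicate block gave 100, 5, 2 and 36 calls, and the numbers do not pair the channels as a set. Of 66 named genes 28 differed by more than the spread between channels in the authors' deposited table, which has Bnip3l at 0.16, against -0.73. Of 43 named called genes 23 kept their calls without any single channel. The cause of these moves was not tested.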

Other observations

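Further called genes, chosen after their values were seen, extend the groups above. Pdpn, a membrane glycoprotein of stromal and glial cells, read 1714, 1485 and 2033 in DR24h and 804, 993 and 863 in CON(DR), a log2 difference of 1.01 ± 0.14 (adjusted p 1.36e-05). Fxyd3, a regulator of the sodium pump, read 844, 912 and 928 in DR24h and 373, 421 and 540 in CON(DR) (0.95 ± 0.15), and the iron storage gene Ftl1 5224, 6075 and 7264 in DR24h and 2555, 3092 and 4884 in CON(DR) (0.81 ± 0.19). The collagen gene Col6a2 (0.91 ± 0.19) and Igfbp3, a binding protein of insulin-like growth factors (0.82 ± 0.18), were also higher and called within arrays. Among the falls, the lipid peroxide reducing enzyme Gpx4 read 3319, 2746 and 2419 in DR24h and 5205, 3911 and 3960 in CON(DR) (-0.68 ± 0.14), and the alanyl-tRNA synthetase gene Aars1 2471, 2238 and 2276 in DR24h and 4938, 4509 and 4108 in CON(DR) (-0.94 ± 0.21, against 0.011 in the authors' deposited table). Of the unnamed called probes that rose, probe 3392 had the largest log2 difference, 1.60 ± 0.17, at 826, 832 and 595 in DR24h and 140, 239 and 314 in CON(DR).

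After Dbp was seen, 18 genes of the circadian clock were looked up, of which 11 were measured. Between DR24h and DR12h Dbp was the only 1 called, and 7 of the 11 were higher in DR24h. Per2, a clock repressor, was at 0.33 ± 0.25 and Nr1d1, another, at 0.26 ± 0.23. The labels give no time of day.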
